A study of Mus musculus with 4 samples.

Results

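The 10 genes described here encode the enzymes that build the sphingolipids of myelin in the mouse: Sptlc1, Sptlc2, Kdsr, Cers2 and Degs1, which make ceramide, Fa2h, which hydroxylates the fatty acid it carries, Ugt8a and Gal3st1, which make the myelin galactolipids, and Ugcg and Sgms1, which turn ceramide into other products. They were taken from a list of names chosen with earlier results of these data known. All 10 were found among the 55401 genes of each table and passed the filter on low counts that left 16751 genes for testing. The measurements come from RNA sequencing of optic nerves in 2 groups with 2 libraries each, Dor WT and Dor cKO, the latter a conditional knockout of Dor in the study's terms. Both groups share tissue, extraction and library kit according to the labels. The gene driver that limits the deletion to some cells, and the animals' age, sex and strain or how many were pooled, are not given in the sources used here. A string resembling an age stands in the names of both Dor WT tables and of neither Dor cKO table, and no label explains it. If the groups differed in age, that could not be told apart from the difference in genotype in any result below. Nothing in the labels says that the libraries of a group came from different animals, so p-values measure only the spread between these libraries, which may be technical.

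Sphingolipid synthesis starts on the endoplasmic reticulum, where serine and a fatty acyl chain are joined and reduced to sphinganine, which is acylated and desaturated to ceramide. In oligodendrocytes, the cells that wrap optic nerve axons, much of the ceramide carries very long, often 2-hydroxylated fatty acids and receives galactose to form galactosylceramide, part of which is sulfated to sulfatide. Both galactolipids are abundant in myelin and help to hold the sheath stable and to organise the junctions beside the node of Ranvier, whereas sphingomyelin and glucosylceramide are made from the same ceramide in most cells.

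Libraries held 17263820 and 21595825 expected counts in Dor WT against 21162586 and 20928316 in Dor cKO. The study's title asks about myelination and alpha-ketoglutarate metabolism in mature oligodendrocytes. Trp53inp2, the gene for which Dor is a synonym (GRCm38 chr2:155381059-155389850), was at 138 and 134 CPM (counts scaled to library size) in Dor WT against 105 and 107 in Dor cKO. Its log2 fold change was -0.36 (SE 0.04, edgeR adjusted p = 2.73e-08), a value over the whole gene in whole tissue, which does not check a deletion limited to some exons or cells. The mean fragment length was 259.6 and 260.0 bases in Dor WT against 245.5 and 245.3 in Dor cKO. Of the lists of cell type markers, the 9 structural myelin protein genes summed to 30881 and 30743 CPM in Dor WT against 17809 and 17735 in Dor cKO. Those of oligodendrocyte precursors summed to 1031 and 992 against 908 and 900. Among these precursor markers Vcan went from 201 and 192 to 128 and 130 CPM. Pdgfra and Ptprz1 fell by only 0.07 each on the log2 scale, and Cspg4 and C1ql1 were not called. The summed markers of astrocytes (13161 and 13146 against 14310 and 14329), fibroblasts and meninges (6240 and 6254 against 7633 and 7661) and microglia (452 and 450 against 505 and 504) were higher in Dor cKO. Most of the astrocyte sum was Gfap (9553 and 9511 CPM in Dor WT), and of its 6 genes 5 rose and Aqp4 fell, by 0.35 on the log2 scale (edgeR adjusted p = 1.30e-14). The 7 pituitary markers summed to 124 CPM in each Dor WT library and to 20.1 and 20.3 in Dor cKO. The 6 Schwann cell markers summed to 284 and 281 against 350 and 351 CPM. The part that these shifts play in the results below was not tested, and in whole tissue fewer cells of a type and less RNA per cell cannot be told apart.

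The enzymes that commit ceramide to the myelin galactolipids were lower in Dor cKO, and those at the entry of the pathway and at its other exits did not pass the test. Ugt8a fell 1.88-fold, Gal3st1 1.77-fold and Fa2h 1.75-fold. Cers2 and Degs1 fell less, by 1.21-fold and 1.17-fold. At an edgeR adjusted p under 0.05, 5 of the 10 genes were lower, 0 were higher and 5 were not called, whereas 13.4% of all tested genes were lower, 14.3% were higher and 27.7% were called in either direction. The median log2 fold change over the 10 genes was -0.20, beside -0.0036 over all tested genes. Since the 10 were chosen with earlier results of these data known, these comparisons describe them and do not test them as a group. With limma on the deposited TPM values, 1 of the 10, Kdsr, was called higher. The CPM values of the 2 groups did not overlap for 8 of the 10 genes, against 60.8% of all tested genes, so the absence of overlap sets few genes apart here. RSEM divides reads that match several genes, and it gave a posterior SD of 0 to the count of all 10 in all libraries.

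**Figure D1:**
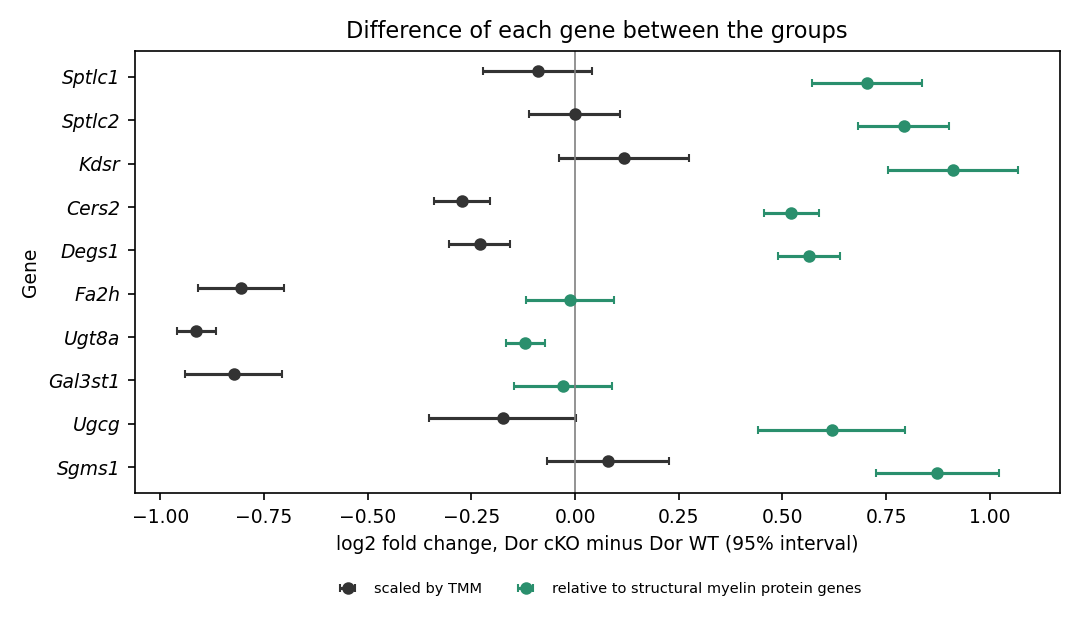
Log2 fold change of each of the 10 genes, Dor cKO minus Dor WT, with its 95% interval (x axis) for the genes in order of the pathway (y axis), scaled by TMM (dark) and relative to the summed structural myelin protein genes (green). With TMM scaling Ugt8a, Gal3st1 and Fa2h lie between -0.91 and -0.81, Cers2 and Degs1 at -0.27 and -0.23, and the intervals of the other 5 include 0.

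The first step is carried out by serine palmitoyltransferase, whose core is a dimer of the proteins encoded by Sptlc1 and Sptlc2. Sptlc1 (ENSMUSG00000021468.8, chr13:53332748-53377397, minus strand) was at 54.3 and 55.7 CPM in Dor WT against 48.6 and 54.8 in Dor cKO. The ranges overlapped, and the log2 fold change was -0.09 (SE 0.06, 95% interval -0.22 to 0.04, edgeR adjusted p = 0.339). Sptlc2 (ENSMUSG00000021036.10, chr12:87305058-87388355, minus strand), which encodes the catalytic subunit, had 65.9 and 67.4 CPM in Dor WT against 66.6 and 66.7 in Dor cKO. Its Dor cKO values lay inside the Dor WT range, and the interval of its log2 difference ran from -0.11 to 0.11 (edgeR adjusted p = 0.992). Kdsr (ENSMUSG00000009905.5, chr1:106720459-106759727, minus strand), the reductase of the second step, had 32.4 and 31.6 CPM in Dor WT against 36.2 and 33.1 in Dor cKO. Both Dor cKO libraries were above both Dor WT libraries, but the log2 difference of 0.12 (SE 0.08, interval -0.04 to 0.27) did not pass (edgeR adjusted p = 0.282). On the per-length scale of the deposited TPM, Kdsr stood at 11.2 and 11.2 against 17.4 and 16.7, and limma on log2(TPM + 1) called it higher, with a difference of 0.57 (adjusted p = 0.0256). Counts and TPM thus gave different calls for Kdsr. Because TPM divides counts by transcript length, its 1.53-fold higher TPM joins counts 1.09-fold higher, not called, with a weighted length 1.39-fold shorter in Dor cKO.

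Cers2 encodes the ceramide synthase that prefers very long acyl chains and is the main one of myelinating cells. Cers2 (ENSMUSG00000015714.11, chr3:95314791-95323599, plus strand) was at 249 and 242 CPM in Dor WT against 211 and 196 in Dor cKO. The groups were apart, with a log2 fold change of -0.27 (SE 0.03, interval -0.34 to -0.21, edgeR adjusted p = 1.06e-07). Degs1, which encodes the desaturase that turns dihydroceramide into ceramide (ENSMUSG00000038633.5, chr1:182275772-182282804, minus strand), was at 170 and 165 CPM in Dor WT against 139 and 146 in Dor cKO. Its groups were also apart, with a fold change of -0.23 as log2 (SE 0.04, interval -0.30 to -0.16, edgeR adjusted p = 8.79e-06). Both calls ended when the biological coefficient of variation was set at 0.1 instead of being estimated (adjusted p = 0.265 for Cers2 and 0.383 for Degs1), and limma on log2(TPM + 1) gave Degs1 an adjusted p of 0.0565. Fa2h, which encodes the fatty acid 2-hydroxylase of myelin lipids (ENSMUSG00000033579.16, chr8:111345135-111393824, minus strand), was at 111 and 113 CPM in Dor WT against 61.1 and 67.4 in Dor cKO. Its highest Dor cKO value was far below its lowest Dor WT value, and the log2 fold change was -0.81 (SE 0.05, interval -0.91 to -0.70, edgeR adjusted p = 1.68e-13). Only 3.19% of tested genes had a log2 fold change as low as that of Fa2h, beside 17.1% for Cers2 and 20.2% for Degs1.

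Ugt8a encodes the galactosyltransferase that makes galactosylceramide, and Gal3st1 the sulfotransferase that makes sulfatide from it. Ugt8a (ENSMUSG00000032854.12, chr3:125865271-125938619, minus strand) had expected counts of 10360 and 12837 in Dor WT against 6702 and 6459 in Dor cKO, or 596 and 591 CPM against 319 and 311. The libraries of each group lay close together and the groups far apart. Its log2 fold change was -0.91 (SE 0.02, interval -0.96 to -0.87, edgeR adjusted p = 6.67e-23), and 2.23% of tested genes had a change as low. Gal3st1 (ENSMUSG00000049721.14, chr11:3983636-3999326, plus strand) was at 77.3 and 78.8 CPM in Dor WT against 44.7 and 43.6 in Dor cKO. It fell by 0.82 (SE 0.06, interval -0.94 to -0.71, edgeR adjusted p = 1.62e-12), again with no overlap, and 3.00% of tested genes had a change as low. The calls of Ugt8a, Gal3st1 and Fa2h held with DESeq2, with limma, with each library left out in turn and at a coefficient of variation of 0.1.

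The stretches of DNA just before the starts of Ugt8a and Gal3st1, whose counts fell, and of Sptlc2, whose counts differed least of the 10, are shown for comparison, with matches to any of 7 searched motifs in capitals. They are RefSeq promoter windows on GRCm38.p6, printed 5′ to 3′ on the gene's own strand and without bases inside annotated exons: chr3:125938683-125938902 (minus) for Ugt8a, chr11:3983386-3983635 (plus) for the first start of Gal3st1, and chr12:87388356-87388605 (minus) for Sptlc2.
Ugt8a: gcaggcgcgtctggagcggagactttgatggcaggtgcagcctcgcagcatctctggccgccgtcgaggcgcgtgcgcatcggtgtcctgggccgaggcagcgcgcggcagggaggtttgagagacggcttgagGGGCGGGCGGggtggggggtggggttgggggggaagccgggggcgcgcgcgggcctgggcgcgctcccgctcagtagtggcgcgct
Gal3st1: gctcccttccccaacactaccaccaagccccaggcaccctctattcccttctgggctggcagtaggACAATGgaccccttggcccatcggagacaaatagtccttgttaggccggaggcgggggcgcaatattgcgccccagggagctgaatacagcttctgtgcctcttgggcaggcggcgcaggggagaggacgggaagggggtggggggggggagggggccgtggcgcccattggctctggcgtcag
Sptlc2: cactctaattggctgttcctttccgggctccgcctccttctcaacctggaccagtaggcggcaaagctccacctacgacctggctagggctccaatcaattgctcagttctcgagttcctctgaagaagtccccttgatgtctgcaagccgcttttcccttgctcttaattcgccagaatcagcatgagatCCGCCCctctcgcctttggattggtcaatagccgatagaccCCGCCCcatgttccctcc
The motifs were CTGGNAC (the core read by MYRF, the factor that drives the myelin programme), ACAAAG and ACAATG (SOX factor cores), CAGCTG and CATATG (E-boxes), TCACNCCAC (a sterol regulatory element) and GGGCGG (the GC box), searched as exact letters on both strands in the 250 bases before each start. In Ugt8a the capitals mark GC boxes that overlap each other, starting 116 and 112 bases before the start, and another lay 18 bases before it, outside the printed bases. In Gal3st1 the capitals mark ACAATG, 184 bases before the start. In Sptlc2 they mark CCGCCC, the GC box on the opposite strand, 59 and 18 bases before the start. Over 32536 RefSeq windows of the same length, 33% held GGGCGG, 10.5% ACAATG, 16.5% ACAAAG, 15.9% CTGGNAC, 13.1% CAGCTG, 3.42% CATATG and 1.04% TCACNCCAC. The table had 15 windows for 9 of the 10 genes. CTGGNAC was found in 1 of them, at the fourth start of Sgms1, whose counts did not pass the test, and TCACNCCAC and CATATG in none. GGGCGG was found at starts of Ugt8a, Cers2, Sptlc1, Sptlc2, Kdsr, Ugcg and Sgms1, that is, at genes that fell and at genes that were not called.

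The other enzymes that use ceramide were Ugcg, which makes glucosylceramide, the base of the gangliosides, and Sgms1, which makes sphingomyelin in the Golgi. Ugcg (ENSMUSG00000028381.8, chr4:59189257-59222833, plus strand) was at 28.8 and 31.0 CPM in Dor WT against 28.4 and 24.7 in Dor cKO. The groups were narrowly apart, and the log2 difference of -0.17 (SE 0.09, interval -0.35 to 0.0026) did not pass (edgeR adjusted p = 0.144). Sgms1 (ENSMUSG00000040451.18, chr19:32122727-32389714, minus strand) was at 34.7 and 37.1 CPM in Dor WT against 37.5 and 38.5 in Dor cKO. Its values were slightly higher in Dor cKO, by a log2 difference of 0.08 (SE 0.07, interval -0.07 to 0.23, edgeR adjusted p = 0.463), and its TPM values of the groups overlapped. The interval of Ugcg includes a fall of the size seen for Cers2, so a change of that size could have been missed.

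Levels can be compared between genes on the TPM scale, which divides by transcript length. In both Dor WT libraries Ugt8a was the highest of the 10, at 249 and 247 TPM, ahead of Cers2 at 206 and 204. In both Dor cKO libraries that order was turned, with Cers2 at 173 and 163 TPM and Ugt8a at 132 and 128. Degs1 was next everywhere, at 139 and 136 TPM in Dor WT against 119 and 122 in Dor cKO. Gal3st1 (73.1 and 75.1 TPM) and Fa2h (72.4 and 73.5) stood together in Dor WT. They were still neighbours in Dor cKO, at 42.0 and 40.6 and at 39.4 and 43.4 TPM, where Sptlc2 (54.8 and 52.3 in Dor WT, 43.0 and 45.7 in Dor cKO) had moved ahead of both. Their order differed between the Dor cKO libraries, so the pair cannot be ranked there. The TPM of a gene covers all its annotated transcripts, coding or not. The weighted length of Sptlc2, 2002 to 2475 bases over the libraries, lay far below its coding transcript of 6710 bases. Its place thus need not be that of the coding transcript alone. Sptlc1 was seventh and Sgms1 eighth in all libraries, and Ugcg (12.45 and 12.43 TPM in Dor WT, 12.6 and 9.73 in Dor cKO) and Kdsr were lowest.

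**Figure D2:**
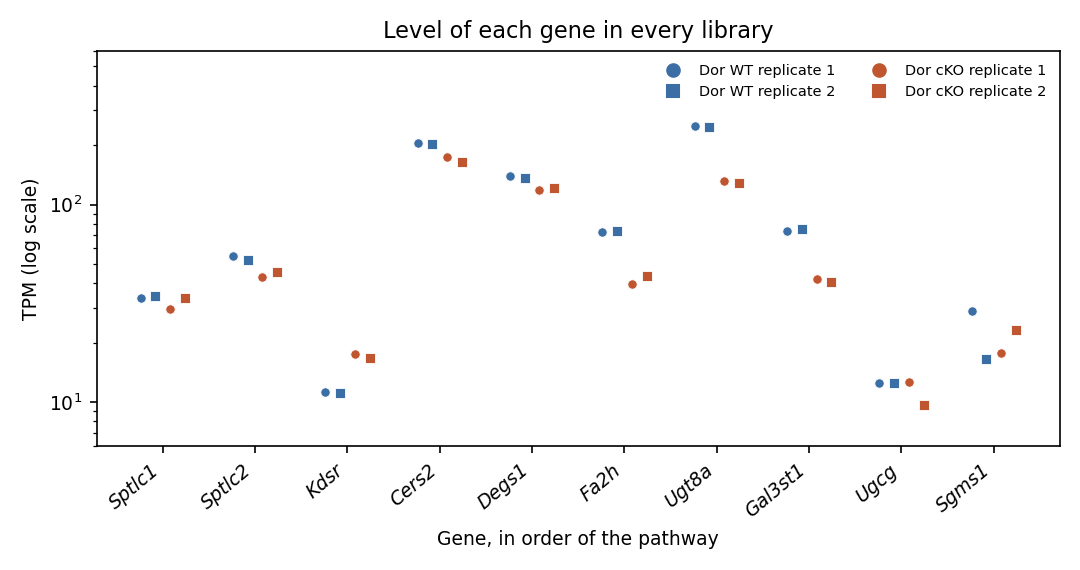
Deposited TPM (y axis, log scale) of the 10 genes in order of the pathway (x axis) in every library, 2 Dor WT (blue) and 2 Dor cKO (orange), 1 point per library. Ugt8a is highest in Dor WT (249 and 247 TPM) and below Cers2 in Dor cKO, and the Sgms1 points of the groups overlap.

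Ratios of TPM within a library compare the transcripts of enzymes that share a substrate or act in series. With 2 libraries a group they are given without a test. They are whole-tissue RNA values, in which a shift of cell types and a shift within a cell cannot be told apart, and they do not measure enzyme amounts. Ugt8a stood at 19.98 and 19.87 times Ugcg, its competitor for ceramide, in Dor WT and at 10.5 and 13.2 times in Dor cKO. Gal3st1 stood at 0.294 and 0.304 times Ugt8a in Dor WT and at 0.318 and 0.317 times in Dor cKO, a small shift between successive enzymes, though the groups did not overlap. Fa2h stood at 0.351 and 0.361 times Cers2 in Dor WT and at 0.227 and 0.266 times in Dor cKO. The ratios of Ugt8a to Ugcg and of Fa2h to Cers2 were thus lower in Dor cKO with no overlap. Galc, the lysosomal enzyme that removes the galactose again, stood at 0.0975 and 0.0915 times Ugt8a in Dor WT and 0.148 and 0.156 times in Dor cKO. Sptlc1 stood at 0.612 and 0.659 times Sptlc2 in Dor WT and at 0.690 and 0.734 times in Dor cKO. As a ratio of counts, without the division by length, it went the other way, from 0.824 and 0.826 to 0.730 and 0.822, so this pair has no direction that holds on both scales. Sgms1 to Ugcg, at 2.33 and 1.33 in Dor WT against 1.41 and 2.37 in Dor cKO, overlapped on the TPM scale. As a ratio of counts it was at 1.20 and 1.20 against 1.32 and 1.56, without overlap. The other 4 ratios kept their direction and did not overlap as ratios of counts.

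Because structural myelin genes were also lower, each gene was compared with the summed counts of the 9 structural myelin protein genes, among them Mbp (log2 fold change -0.73). Ugt8a, Fa2h and Gal3st1 fell by about as much as that sum, and the other 7 were higher relative to it. Fa2h differed from the sum by -0.01 on the log2 scale (interval -0.12 to 0.09, edgeR adjusted p = 0.84) and Gal3st1 by -0.03 (interval -0.15 to 0.09, adjusted p = 0.64). Ugt8a was lower relative to the sum by a log2 difference of -0.12 (interval -0.17 to -0.07, adjusted p = 3.18e-05). That call ended with the geometric mean of the 9 genes as reference, where the difference was 0.0071 (adjusted p = 0.775), and at a coefficient of variation of 0.1 (adjusted p = 0.429). With the geometric mean, Fa2h was called higher by 0.12 (adjusted p = 0.0402), so these genes are close to the reference, on a side that depends on how it is formed. Cers2 and Degs1 were higher relative to the sum by 0.52 (interval 0.45 to 0.59) and 0.56 (interval 0.49 to 0.64). Ugcg (0.62), Sptlc1 (0.70), Sptlc2 (0.79), Sgms1 (0.87) and Kdsr (0.91) were further from it. In this test 83.2% of all tested genes were higher, 0.663% lower and 16.1% not called, with a median of 0.79, so the 7 higher genes are no more than the background share. Of 19 cholesterol synthesis genes, another lipid pathway of myelin, 18 were lower with TMM scaling, beside 13.4% of all tested genes. Their median log2 fold change was -0.36. Relative to the myelin sum 19 of 19 were higher, with a median of 0.43, beside 83.2% of all tested genes.

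The abundance-weighted transcript length that RSEM gives for each gene is a readout of isoform use that the counts do not hold. For 4 of the 10 genes the lengths of the groups did not overlap, against 27% of all tested genes. Kdsr had weighted lengths of 4435 and 4360 bases in Dor WT against 3240 and 3092 in Dor cKO, 1.39-fold shorter. Non-overlapping lengths with a ratio at least as large were found for 1.56% of tested genes. GENCODE lists 1 coding transcript of 5518 bases for Kdsr and retained-intron transcripts of 2582 and 640 bases, so under these models a lower weighted length corresponds to a larger estimated share of the non-coding models. Sptlc2 went the other way, from 2002 and 2132 bases in Dor WT to 2475 and 2346 in Dor cKO, 1.17-fold longer (5.33% of tested genes). Its models are a coding transcript of 6710 bases, retained-intron models of 3769 and 465 bases and other processed models of 704 and 763 bases. The weighted length lay far below that of the coding transcript in all libraries, and Sptlc2 was lower per length in Dor cKO without a call (limma on log2(TPM + 1), difference -0.27, adjusted p = 0.0765). Degs1 (2032 and 2017 against 1930 and 1971 bases) and Fa2h (2488 and 2492 against 2479 and 2479) differed by no more than 1.04-fold. Ugt8a had 3734 and 3733 bases in Dor WT against 3728 and 3740 in Dor cKO, which overlap. Sgms1, with 15 annotated transcripts, ranged from 1991 to 3509 bases within Dor WT alone, and its TPM values of 29.0 and 16.6 differed accordingly. The difference in fragment length between the groups stands beside these lengths, and its part in them was not tested.

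**Figure D3:**
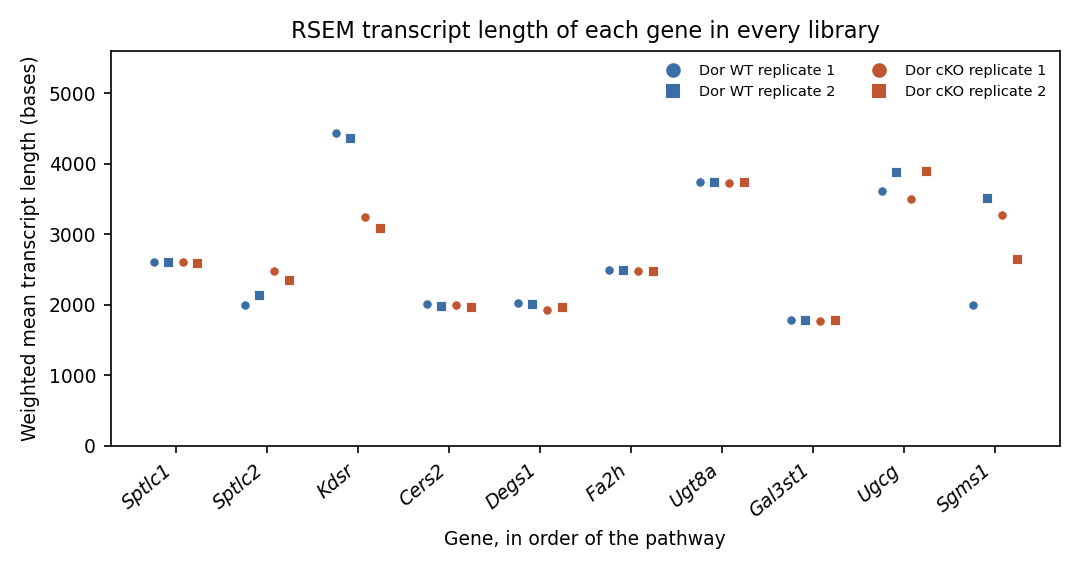
RSEM weighted mean transcript length in bases (y axis) of the 10 genes (x axis) in every library, 2 Dor WT (blue) and 2 Dor cKO (orange), 1 point per library. Kdsr is shorter in both Dor cKO libraries (3240 and 3092 bases) than in Dor WT (4435 and 4360), and Ugt8a stays between 3728 and 3740 bases.

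The rest of the pathway was read from 10 lists with 83 genes, also chosen with earlier results of these data known, and 81 of them were tested. Of these, 16 were higher, 16 lower and 49 not called, beside 27.7% of all tested genes called, and the median log2 fold change was 0.01. The calls depended on the test: 8 were higher and 13 lower with DESeq2, 2 and 9 with limma on log2(TPM + 1), and 1 and 8 at a coefficient of variation of 0.1. Of the 25 called genes named below, Elovl7, Slc35b2, Gltp, St8sia3, Sphk1 and S1pr5 kept their calls under all 3, and Mfsd2a lost its call only with limma. Ormdl3, Tecr, Papss2, Samd8, St3gal1, St3gal2 and S1pr1 lost theirs under all 3. Among 7 genes that supply very long chain acyl groups to Cers2, 4 fell and 0 rose, with a median of -0.11. Of all tested genes 13.4% fell and 14.3% rose. Elovl7, a fatty acid elongase, went from 81.3 and 82.5 CPM to 47.8 and 45.9 and fell by 0.81 (SE 0.06, edgeR adjusted p = 1.51e-12), close to Fa2h. Elovl1, the elongase of saturated very long chains, fell by 0.24 (SE 0.05) and Hsd17b12, the reductase of the elongation cycle, by 0.32 (SE 0.04). Tecr, the last enzyme of that cycle, fell by 0.11 (adjusted p = 0.00679), a call that also ended without Dor cKO replicate 2 (adjusted p = 0.0767) and was at 0.0842 with DESeq2. Another list held 10 genes that make or carry galactose and sulfate donors or clear a by-product of sulfation. Of these 4 fell and 2 rose. Slc35b2, the Golgi transporter of the sulfate donor, went from 136 and 137 to 102 and 100 CPM and fell by 0.44 (SE 0.04, adjusted p = 4.42e-10). Papss1, which makes that donor, fell by 0.33 (SE 0.03), while its paralogue Papss2 rose by 0.29 (SE 0.08), a call that ended when either replicate 1 was left out (adjusted p = 0.0529 without that of Dor WT and 0.053 without that of Dor cKO). Bpnt1, a phosphatase that clears the by-product of sulfation, fell by 0.27 (SE 0.07), with an adjusted p of 0.0616 without Dor cKO replicate 2.

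Genes of breakdown were higher or not called in edgeR's test. Among 14 genes of galactolipid and sphingolipid breakdown, 7 rose, 0 fell and 7 were not called, with a median of 0.11, beside 14.3% of all tested genes that were higher. With DESeq2 5 rose, with either limma setting 1, and at a coefficient of variation of 0.1 the count was 0. Sumf1, which activates sulfatases, rose by 0.36 (SE 0.06, adjusted p = 3.62e-05), Hexa, a hexosaminidase subunit, by 0.29 (SE 0.04) and Gm2a, its activator, by 0.24 (SE 0.04). Limma on log2(TPM + 1) ended the calls of Sumf1 (adjusted p = 0.0613) and Gm2a (adjusted p = 0.0978), and the coefficient of 0.1 that of Hexa too (adjusted p = 0.22). Arsa, the lysosomal sulfatase that turns sulfatide back into galactosylceramide, went from 42.1 and 45.3 to 50.9 and 53.3 CPM and rose by 0.25 (SE 0.06, adjusted p = 0.0036), with an adjusted p of 0.0625 without Dor cKO replicate 2 and 0.111 with limma. Galc was at 50.0 and 48.3 CPM in Dor WT against 43.6 and 46.8 in Dor cKO and was not called (adjusted p = 0.185). Lysosomal genes are also abundant in microglia and fibroblasts. Of the fibroblast and meningeal markers 6 of 6 rose, and of the microglial markers 2 of 5 rose and 1 fell, and their part in the rise of the breakdown genes was not tested. Among 6 transfer genes 1 rose and 1 fell, beside 14.3% and 13.4% of all tested genes. Gltp, which carries glycolipids between membranes, went from 299 and 293 to 207 and 215 CPM and fell by 0.49 (SE 0.03, adjusted p = 4.85e-14). Col4a3bp, which encodes the ceramide carrier to the Golgi, rose by 0.19 (adjusted p = 0.00435; 0.0661 without Dor cKO replicate 1).

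Among the regulators, the other ceramide synthases and sphingomyelin turnover 1 gene per list was called, beside 27.7% of all tested genes. Of 6 small subunits and regulators of serine palmitoyltransferase 1 was called, Ormdl3, an inhibitor of the enzyme. It rose by 0.14 (adjusted p = 0.0418), a call that ended without either Dor WT replicate (adjusted p = 0.0917 and 0.0812) and without Dor cKO replicate 2 (adjusted p = 0.431). Of 5 tested other ceramide synthases and desaturases 1 fell, Cers1, by 0.32 (SE 0.07, adjusted p = 4.72e-04). Its transcript is shared with Gdf1, and RSEM gave its count a posterior SD of up to 15.63 reads. Of 5 genes of sphingomyelin turnover Samd8 fell, by 0.18 (adjusted p = 0.00625), a call that ended without Dor WT replicate 2 (adjusted p = 0.0772) and without Dor cKO replicate 1 (adjusted p = 0.12).

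Downstream of Ugcg, 2 of 11 ganglioside synthesis genes rose and 2 fell. Beside this and the list counts that follow, 14.3% of all tested genes rose and 13.4% fell. St8sia3, a sialyltransferase, went from 60.3 and 61.2 to 39.0 and 38.8 CPM and fell by 0.64 (SE 0.06, adjusted p = 1.67e-09). The sialyltransferase genes St3gal1 and St3gal2 rose by 0.39 and 0.17 (adjusted p = 0.00536 and 0.00735). Without Dor cKO replicate 2 their adjusted p was 0.196 and 0.125, and without Dor WT replicate 2 that of St3gal2 was 0.123. Of 10 tested genes of ceramide turnover and sphingosine phosphate, 1 was called. This was Sphk1, a kinase that makes sphingosine 1-phosphate, which rose from 51.6 and 53.9 to 85.9 and 87.3 CPM, by 0.71 (SE 0.05, adjusted p = 8.87e-12). Of 7 receptor and export genes for that lipid, 3 fell and 2 rose. S1pr5, the receptor of the oligodendrocyte lineage, went from 31.7 and 28.0 to 18.6 and 14.98 CPM and fell by 0.83 (SE 0.10, adjusted p = 1.99e-07), and Mfsd2a, a lipid transporter, fell by 0.89 (SE 0.10). S1pr3 and S1pr1, receptors of astrocytes and vessels among other cells, rose by 0.24 and 0.18 (SE 0.03 and 0.05). The call of S1pr1 ended with DESeq2 (adjusted p = 0.0555), and that of S1pr3 with limma on log2(TPM + 1) (adjusted p = 0.0769) and at the coefficient of 0.1 (adjusted p = 0.369).

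**Figure D4:**
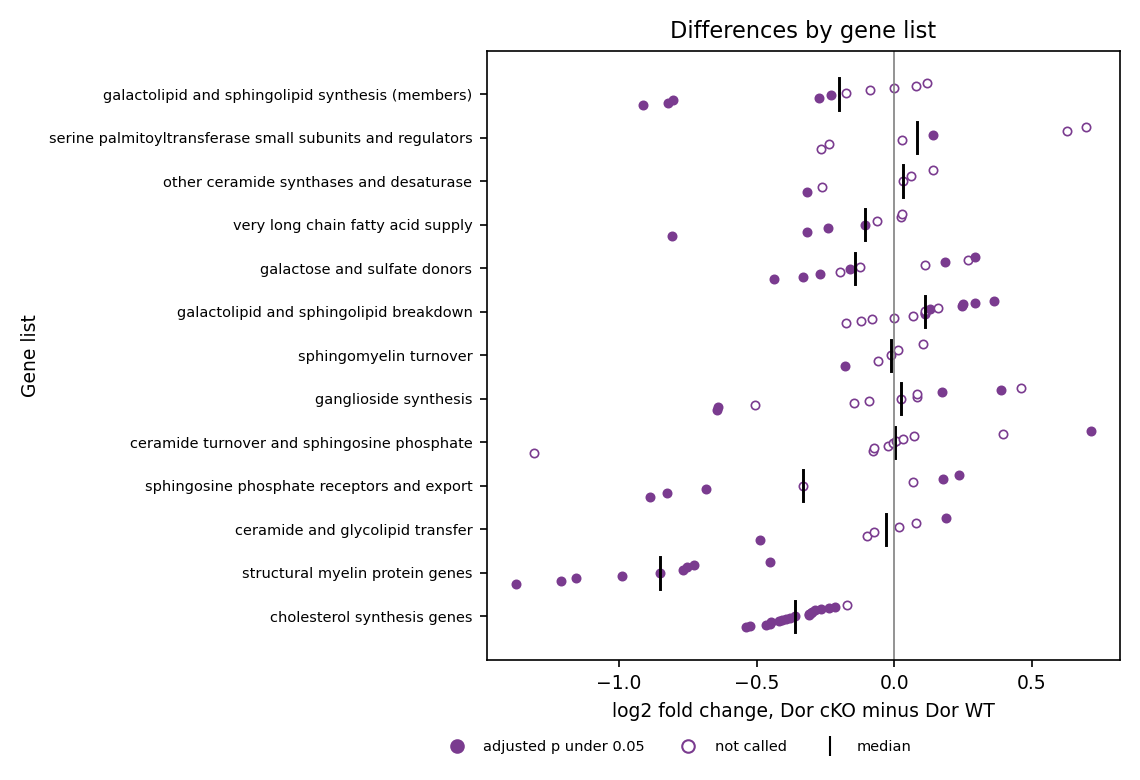
Log2 fold change, Dor cKO minus Dor WT (x axis), of each tested gene in the 10 synthesis genes, the 10 other sphingolipid lists, the structural myelin protein genes and the cholesterol synthesis genes (y axis), filled where the edgeR adjusted p was under 0.05, with the list's median as a bar. The 3 lowest synthesis genes lie among the myelin protein genes, and no called breakdown gene lies below 0.

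Relative to the summed myelin protein genes, 72 of the 81 genes in these lists were higher, 0 lower and 9 not called, against 83.2% higher over all tested genes. Of the 16 that fell, 5 were not higher relative to that sum, beside 23.7% of all genes that fell. They were Elovl7 (log2 difference -0.01, interval -0.13 to 0.10), S1pr5 (-0.03, interval -0.24 to 0.18), Mfsd2a (-0.10, interval -0.30 to 0.11), Spns2 (0.11, interval -0.11 to 0.32) and St8sia1 (0.15, interval -0.13 to 0.44). Spns2, an exporter of sphingosine 1-phosphate, and St8sia1, a ganglioside sialyltransferase, were chosen after their values were seen. With limma on log2(TPM + 1), Mfsd2a had an adjusted p of 0.0547.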

How the data were processed

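RNA of mouse optic nerves was measured in 2 Dor WT and 2 Dor cKO libraries. Each gene has an expected count, a TPM value and a weighted transcript length in the deposited tables, which are RSEM output per the file headers. RSEM 1.3.1, STAR 2.7.9a, Trimmomatic 0.36 and GRCm38 are named in the submitters' processing notes, without the role of each. The annotation and the strand setting are not given in the sources used here. GENCODE M21 supplied symbols and coordinates and matched 55141 of 55401 identifiers.

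The authors' expected counts were rounded. Genes were filtered with filterByExpr (minimum count 10, minimum total 15) and compared with the quasi-likelihood test of edgeR 4.0.16 (robust, TMM scaling, Benjamini-Hochberg adjustment over 16751 genes, R 4.3.3). CPM uses TMM-scaled totals, under which a floor of 3 counts lies at 0.138 to 0.173 CPM, and the median shift over all genes was -0.0036. The authors' TPM values, scaled to a fixed sum per library, gave levels and ratios and a test with limma 3.58.1. In the comparison with structural myelin protein genes, their summed counts replaced the library sizes. The estimated biological coefficient of variation was 0.0348, and the alternative of 0.1 used edgeR's likelihood ratio test. DESeq2 1.42.0 was a further alternative. On simulated data with 200 changed among 16751 genes, edgeR recovered 47.1% of log2 changes of 0.25, 95.5% of 0.5 and 100% of 1. Of its calls 3.59% were false. Every simulated gene had the estimated coefficient of variation of 0.0348, and the changed genes were drawn from those above a minimum level. In the data 4647 genes were called, so these rates hold only under the simulated settings and do not measure false calls in the data.

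The members and lists were chosen with earlier results of these data known. Named were the 10 members and, from each other list, up to 4 called genes, those of the largest changes among genes averaging 20 CPM or more. Promoter bases inside GENCODE exons or the RefSeq gene extent were not printed. Some genes of the lists are not reported here by name.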

Additional observations from a re-analysis of the deposited data

How the results depend on the processing

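With 2 libraries a group, the spread is estimated mainly across genes, and small changes are the least secure. Depth was similar in all libraries, and changes of 0.25 on the log2 scale were recovered only in part in simulated data. Over all genes, 2399 were higher and 2248 lower; DESeq2 gave 1539 and 1383, limma on log2(TPM + 1) 666 and 722, limma on log2(TPM + 0.1) 672 and 734, and a coefficient of variation of 0.1 gave 703 and 891. Leaving out 1 library gave 1782 to 2184 higher and 1670 to 2073 lower. Of the 10 genes, 5 were lower and 0 higher; the coefficient of 0.1 left 3 lower, and each limma setting called 1 higher, Kdsr. Of the other pathway genes, 16 were higher and 16 lower; higher were 8 with DESeq2, 2 with each limma setting, 1 with the coefficient of 0.1 and 10 to 13 with 1 library left out (10 without Dor cKO replicate 2), and lower were 9 and 10 with the limma settings and 8 with the coefficient of 0.1. Of the 25 named pathway calls, 18 were kept with DESeq2, 10 and 11 with limma and 7 with the coefficient of 0.1. Cers1 was lost with limma on log2(TPM + 1) (adjusted p = 0.0933).

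Relative to the myelin protein genes, 0 of the 10 were lower with the coefficient of 0.1 or the geometric mean, in place of 1. The geometric mean turned the differences of Fa2h (0.12), Ugt8a (0.0071) and Gal3st1 (0.098, adjusted p = 0.115), and that of Fa2h ranged from -0.086 to 0.061 with 1 library left out, above 0 without Dor WT replicate 2 (0.0038) and Dor cKO replicate 1 (0.061). The difference of Sptlc2, near 0, turned without the low-count filter (0.0064), with DESeq2 (0.00035) and after removal of a length and GC trend (0.063), and ranged from -0.017 to 0.017 with 1 library left out, above 0 without Dor WT replicate 2 (0.017) and Dor cKO replicate 1 (0.00084). That of Sgms1 was -0.11 with both limma settings. The causes were not tested.

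The groups share replicate numbers, but nothing in the labels pairs the libraries, and the deviations of same-numbered libraries correlated at -0.015 across genes. A replicate block gave 2562 higher and 2409 lower genes and 0 higher and 5 lower of the 10.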
